A study of Mus musculus with 19 samples.

Results

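The genes encoding the protein subunits of the mitochondrial ribosome were followed in mouse calf muscle across age and diet. They were taken by name, as every gene whose symbol is Mrpl or Mrps followed by a number, with pseudogenes left out, which gave 78 of the 14707 genes in the deposited table. Of these, 51 encode large-subunit proteins and 26 encode small-subunit proteins. The remaining gene, Mrps36, carries a ribosomal name but encodes a subunit of the 2-oxoglutarate dehydrogenase complex. All 78 passed the filter on low values, with mean normalized values over the 19 libraries from 174 to 2691.

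RNA was sequenced from the gastrocnemius, a calf muscle of mixed fibre type, of male mice of a strain the labels spell C657Bl/6J. Young lean mice (n = 4 libraries) and young obese mice (n = 5) were 6 months old, and aged lean mice (n = 5) and aged obese mice (n = 5) were 20 to 21 months old. Lean mice received a diet with 12% of calories from fat and obese mice a diet with 60%, and no other treatment or altered allele is given. The sample labels, followed here, differ from the design text, which gives tibialis anterior, paired-end sequencing and an upper age range of 21 to 24 months, and this was not settled. The design asks what age and diet do to muscle, singly and combined. Whether each library is a separate animal is not given in the sources used here, and the p-values then measure only how far these samples spread, which may be technical.

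The mitochondrial ribosome translates the few messages encoded by mitochondrial DNA, which specify core subunits of the respiratory chain and ATP synthase. All of its proteins are encoded in the nucleus, made in the cytosol and imported, so its assembly depends on nuclear genes matching mitochondrially transcribed ribosomal RNA. Many subunits descend from bacterial ribosomal proteins, and others were added in the mitochondrial lineage. In muscle fibres, where respiratory capacity is high and varies with fibre type, this translation system supplies the oxidative machinery. Promoters of such genes often hold binding motifs of the ETS family factor GABP, of NRF1 and of YY1.

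Promoter windows from RefSeq (build GRCm38.p6, from 250 bases before to 50 after the annotated start) were found for 69 of the 78 genes. They were searched on both strands for the ETS core CCGGAAG, the NRF1 motif (GCGC and TGCGC with any base between them) and the YY1 motif AAGATGGCG, and no member held overlapping matches. At least 1 of the 3 motifs was present in 41 of the 69 genes (59.4%), where a gene counted if any of its windows matched. The shares were 28.5% of the 11605 genes in the table with a window and 15.1% of all 27025 genes with a window. The ETS core was in 26 (37.7%, against 18.3% and 9.93%), the NRF1 motif in 13 (18.8%, against 10.5% and 5.19%) and the YY1 motif in 8 (11.6%, against 3.2% and 1.64%). A match describes the letters only and shows no binding. The windows of 4 members described below are printed because 3 of them passed the test in a comparison and the fourth shares its start region with another member. Bases in lower case are the window 5′ to 3′ on the gene's strand and capitals mark a motif match, read on either strand. Mrps18c (chr5:100798509-100798808, plus strand) holds 1 ETS core, Mrpl28 (chr17:26123253-26123552, plus strand) and Mrps2 (chr2:28467816-28468115, plus strand) hold none of the 3 motifs, and Mrps11 (chr7:78782881-78783180, plus strand) holds 1 YY1 motif.
Mrps18c: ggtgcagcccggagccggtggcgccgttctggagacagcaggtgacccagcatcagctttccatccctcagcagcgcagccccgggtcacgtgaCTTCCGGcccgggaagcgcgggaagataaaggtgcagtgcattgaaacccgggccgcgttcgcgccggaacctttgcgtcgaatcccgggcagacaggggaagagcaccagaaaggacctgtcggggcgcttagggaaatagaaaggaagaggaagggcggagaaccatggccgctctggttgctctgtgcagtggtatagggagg
Mrpl28: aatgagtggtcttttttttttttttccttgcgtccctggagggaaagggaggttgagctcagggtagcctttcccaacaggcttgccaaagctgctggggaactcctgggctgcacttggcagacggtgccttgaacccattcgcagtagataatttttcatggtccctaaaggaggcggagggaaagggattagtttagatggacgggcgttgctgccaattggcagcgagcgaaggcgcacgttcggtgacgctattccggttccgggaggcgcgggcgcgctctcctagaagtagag
Mrps2: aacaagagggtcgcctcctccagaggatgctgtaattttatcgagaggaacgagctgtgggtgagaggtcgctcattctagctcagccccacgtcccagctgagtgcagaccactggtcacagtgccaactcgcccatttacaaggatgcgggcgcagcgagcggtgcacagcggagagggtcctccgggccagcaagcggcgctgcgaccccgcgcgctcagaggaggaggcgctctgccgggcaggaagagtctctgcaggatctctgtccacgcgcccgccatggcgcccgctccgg
Mrps11: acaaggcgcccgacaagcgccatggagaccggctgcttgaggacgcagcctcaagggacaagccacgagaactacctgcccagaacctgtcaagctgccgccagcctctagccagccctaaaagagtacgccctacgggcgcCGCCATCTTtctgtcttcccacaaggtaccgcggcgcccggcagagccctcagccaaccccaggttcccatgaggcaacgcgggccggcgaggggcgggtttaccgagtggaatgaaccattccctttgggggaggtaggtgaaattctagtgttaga
The Mrps11 window overlaps that of Mrpl46, a large-subunit gene on the opposite strand, over 141 bases.

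The members differed widely in level. Per kb of annotated exon (GENCODE M21, another annotation than the authors' own), the mean normalized value spanned 53.9-fold, from 24.9 for Mrps35 to 1342 for Mrps21, with a median of 220.7. Mrps21 encodes a small-subunit protein with a bacterial counterpart, and Mrps35 a small-subunit protein specific to mitochondria. Next to the top per kb came Mrpl34 (904.5), a large-subunit protein of bacterial type, then Mrpl54 (864.9) and Mrpl12 (850.2). Mrpl12 forms the stalk that recruits translation factors. Mrpl14 (738), Mrpl42 (731) and Mrps28 (703) followed within the spread of one another. At the low end, Mrps10 stood at 33.3, Mrpl47 at 39.3 and Mrps22 at 55.1 per kb. Large-subunit genes had a median of 226.2 per kb and small-subunit genes one of 156, and the large-subunit range of 39.3 to 904.5 lay inside the small-subunit one. The exon lengths join all annotated isoforms, so a gene with a long, rarely used exon appears lower than its messages would.

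**Figure D1:**
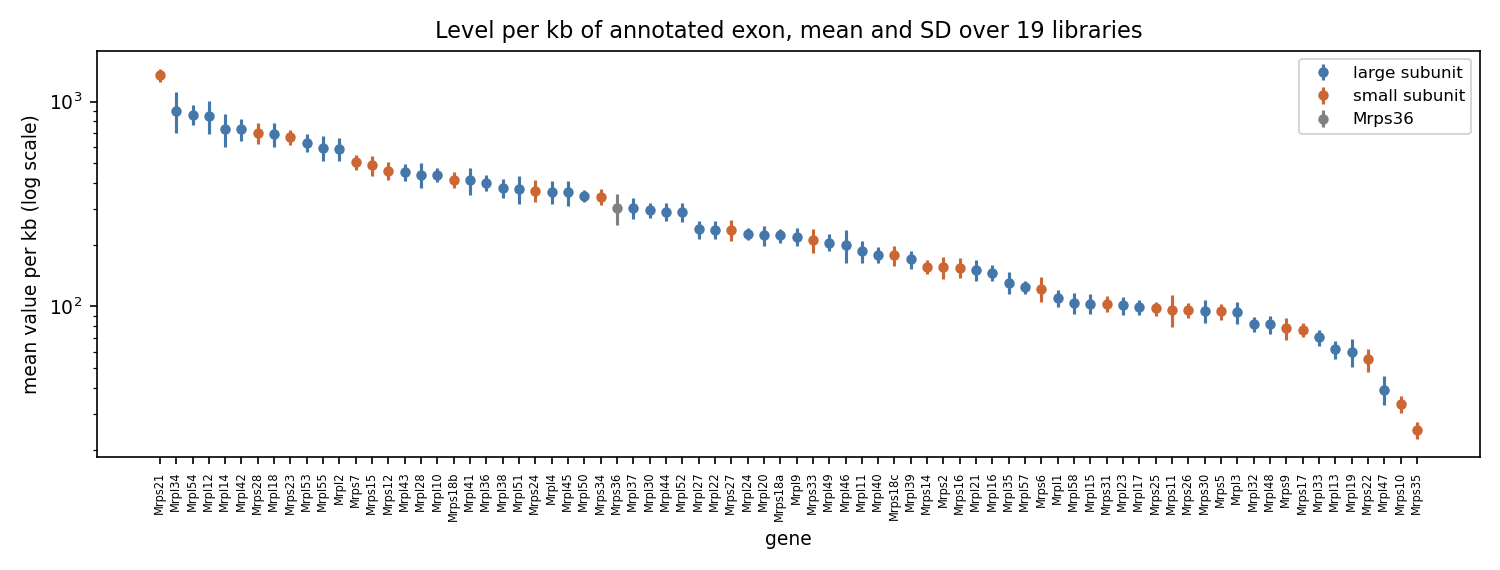
Mean normalized value per kb of annotated exon (log axis) for each of the 78 genes, ordered from highest to lowest; points are means and bars the SD over 19 libraries, coloured by subunit. Mrps21 stands at 1342 per kb and Mrps35 at 24.9, and both of these are small-subunit genes; large-subunit genes lie between 39.3 and 904.5.

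Libraries of 1 group differed in the 78 genes as much as the groups did. Their summed share of each library's total ran from 0.249 to 0.355%, on totals of normalized values of 15.4 to 17.7 M. Young lean 1 stood apart: it was the highest of the 19 libraries for 42 of the 78 genes (53.8%, against 8.87% of all tested genes) and the lowest for none. Aged lean 1 was the lowest for 24 (30.8%, against 6.54%) and aged obese 2 for 15 (19.2%, against 4.82%). The mean of log2(value + 1) over the 78 genes was 9.29, 9.06, 8.97 and 8.94 in the 4 young lean libraries. In young obese libraries it was 9.17, 9.06, 8.95, 9.14 and 9.15. It was 8.85, 9.05, 9.10, 8.98 and 8.97 in aged lean libraries and 8.95, 8.88, 8.95, 9.01 and 9.10 in aged obese ones. All 4 groups overlapped, their means ran from 8.98 to 9.09, and the pooled SD within groups was 0.11. Young lean 1 also had a clock score (Arntl, Npas2 and Clock minus 6 genes of the opposite phase) of -1.32, against -3.20 to -2.88 in the other young lean libraries, and the lowest library weight of all (0.297). The part of these in the results was not tested, and calls among the 78 genes that rest on young lean mice are given with and without that library.

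**Figure D2:**
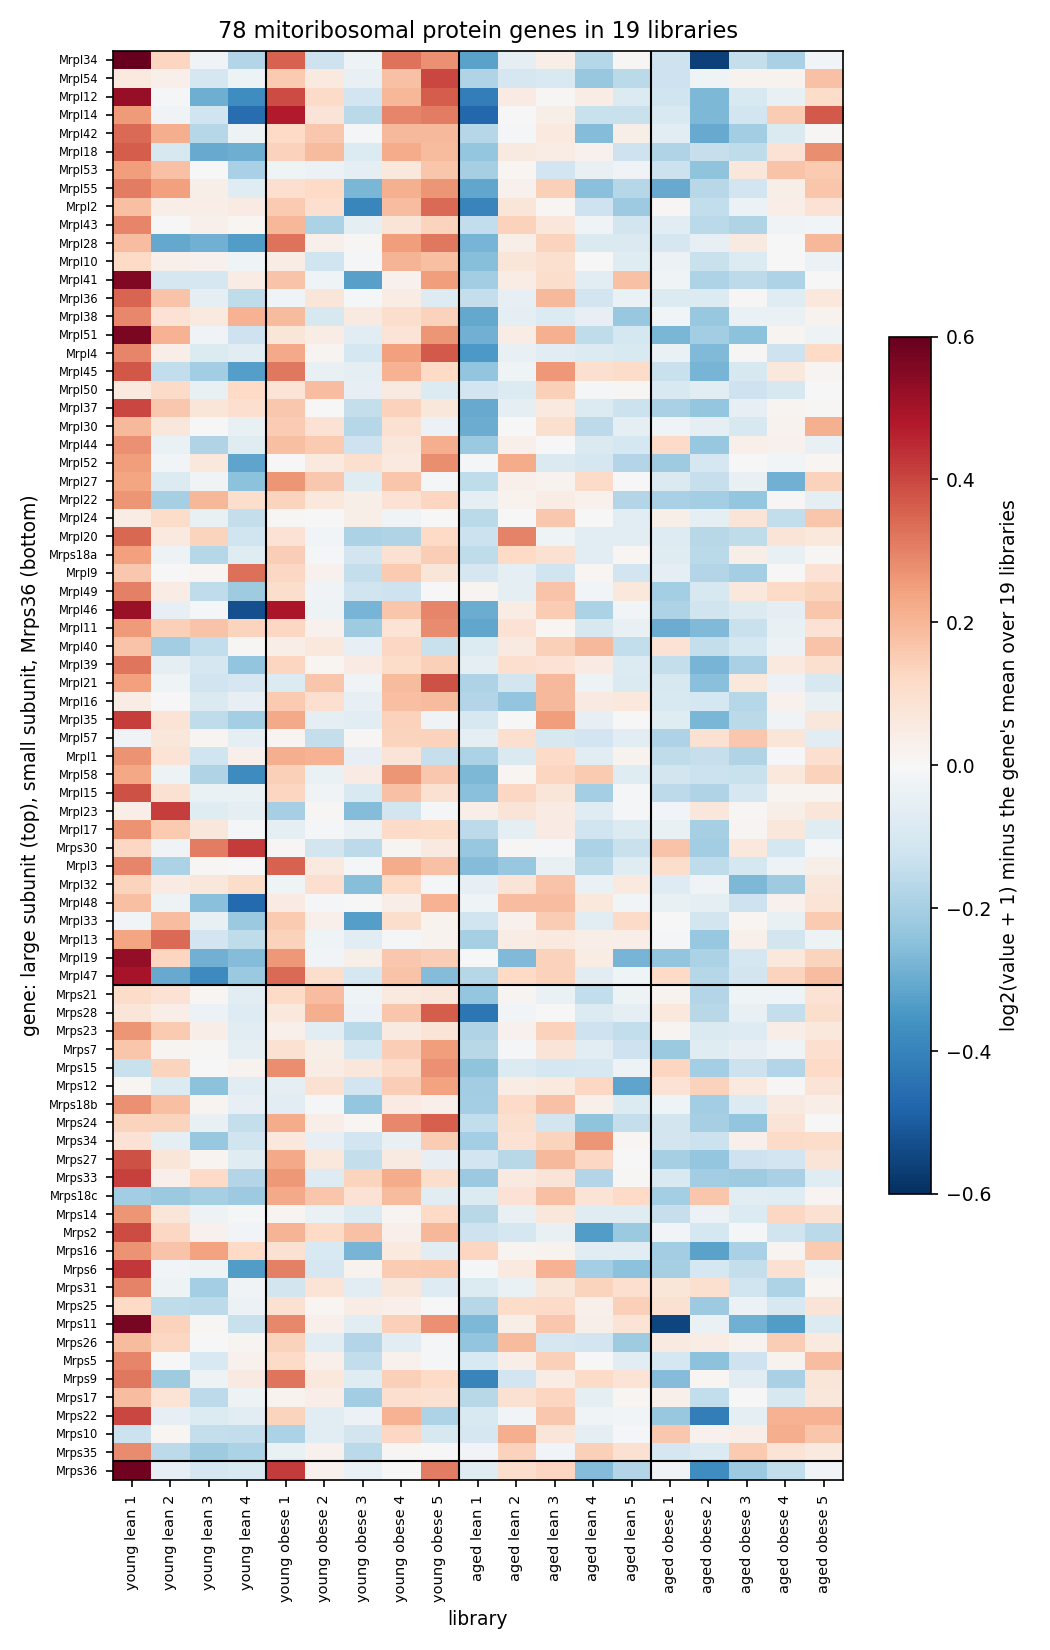
Each row is 1 of the 78 genes, ordered by subunit and then by level per kb, and each column 1 of the 19 libraries; colour is log2(value + 1) minus the gene's mean over the libraries. The column of young lean 1 is the highest for 42 genes, and the column of aged lean 1 is the lowest for 24.

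**Figure D3:**
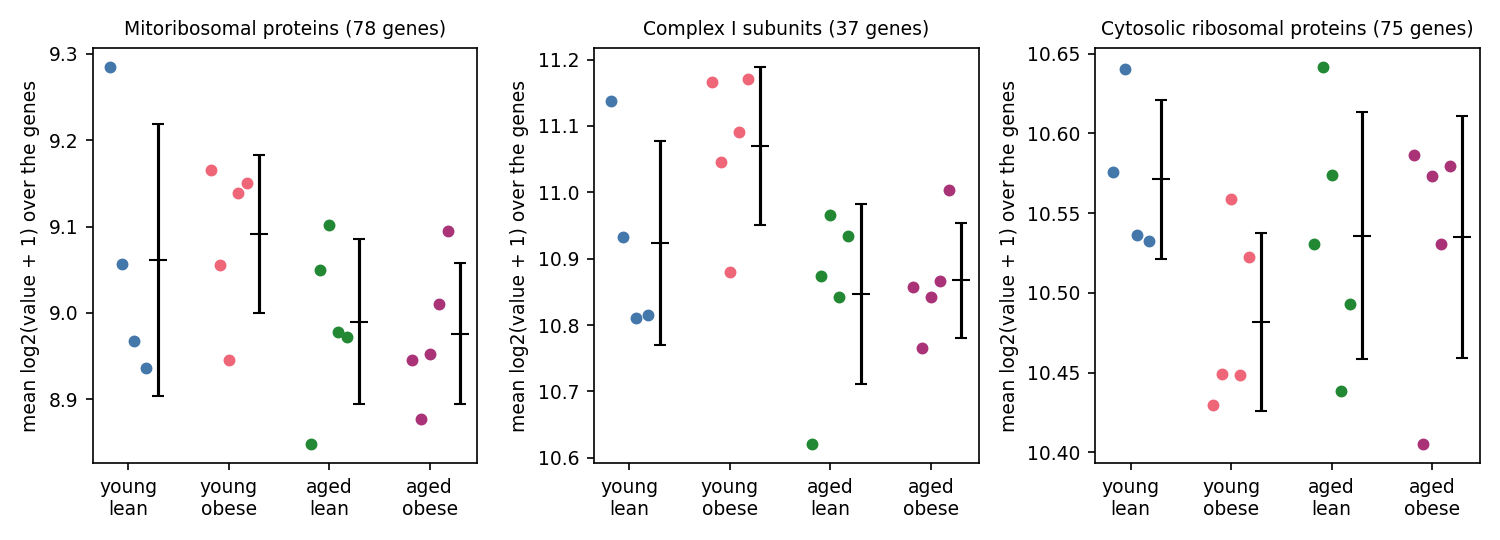
Mean log2(value + 1) per library over the mitoribosomal, complex I and cytosolic ribosomal protein genes; points are libraries, bars the group mean and SD (n = 4 young lean, 5 in each other group). For the mitoribosomal genes all 4 groups overlap, with young lean 1 at 9.29 the highest and aged lean 1 at 8.85 the lowest.

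High-fat feeding of young mice left most mitoribosomal protein genes within a small distance of their lean level, and 2 rose. These were Mrps18c and Mrpl28, 2 of 78 genes (2.56%), where 11% of all tested genes were called in either direction and 5.7% were higher. None of the 78 fell, where 5.33% of all genes did. The median log2 change was 0.02 (all genes 0.01), -0.00 under quantile normalization and 0.09 without young lean 1. Of the 78, 44 genes were above 0 and 34 below, and 5 had an unadjusted p under 0.05 (6.41%, against 28.6% of all genes). In 56 of the 78 the estimate was under 1.1-fold, and in 76 the 95% interval lay within 1.5-fold in either direction.

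Mrps18c encodes the small-subunit protein that corresponds to bacterial S18, and is 1 of 3 mammalian paralogs of it. Its normalized value was 164, 163, 166 and 163 in the young lean libraries and 223, 213, 202, 217 and 182 in the young obese ones. All 5 obese libraries were above all 4 lean ones, and the lean libraries lay close together (164 ± 1.29, SD, n = 4, against 207 ± 16.2, n = 5). The change was 1.26-fold (log2 0.33, SE 0.09, adjusted p = 0.0193), and it was 0.33 (adjusted p = 0.0188) without young lean 1. Without young lean 2 the adjusted p was 0.0522. Exons of Mrps18c overlap those of Gm43511, a provisional transcript on the same strand, so reads of that transcript could be counted in either.

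The other paralogs did not pass. Mrps18b, which sits in the small subunit, changed by -0.15 (adjusted p = 0.267) and Mrps18a, which sits in the large subunit, by 0.06 (adjusted p = 0.675). Per kb of exon, the mean level of Mrps18c was the lowest of the 3, at 178, against 222 for Mrps18a and 415 for Mrps18b.

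Mrpl28 encodes a large-subunit protein with a bacterial counterpart. Its value was 683, 486, 492 and 476 in young lean libraries and 754, 615, 604, 716 and 748 in young obese ones. Young lean 1 lay inside the obese range, and the other 3 lean libraries lay below every obese library. The change was 1.30-fold (log2 0.37, SE 0.11, adjusted p = 0.0344), and without young lean 1 it was 0.50 (adjusted p = 0.00204). Leaving out each of 6 other young libraries took the adjusted p to as much as 0.104.

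Without young lean 1, 7 of the 78 genes rose on the high-fat diet in young mice, where 20.2% of all tested genes were then called. They were Mrpl12, Mrpl18, Mrpl28, Mrpl45, Mrpl48, Mrpl58 and Mrps18c. Mrpl58 is the peptidyl-tRNA hydrolase built into the large subunit, which frees stalled chains. For Mrpl12 the values were 1844, 1279, 1048 and 992 in young lean libraries and 1685, 1389, 1187, 1472 and 1649 in young obese ones, so that young lean 1 alone was above every obese library. With it, the change was 0.23 (SE 0.15, adjusted p = 0.329), and without it 0.41 (adjusted p = 0.0249).

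Among genes below 0, Mrps16 had the largest negative change. It encodes a small-subunit protein of bacterial type. Values were 533, 498, 524 and 481 in young lean and 471, 415, 365, 460 and 423 in young obese libraries, and the groups did not overlap. The change of -0.26 (SE 0.09) had an adjusted p of 0.0749, and it was -0.23 (adjusted p = 0.107) without young lean 1. Genes whose groups did not overlap were Mrps18c upward and Mrps16 downward, 1 of 78 in each direction (1.28%), against 3.54% and 4.25% of all tested genes.

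**Figure D4:**
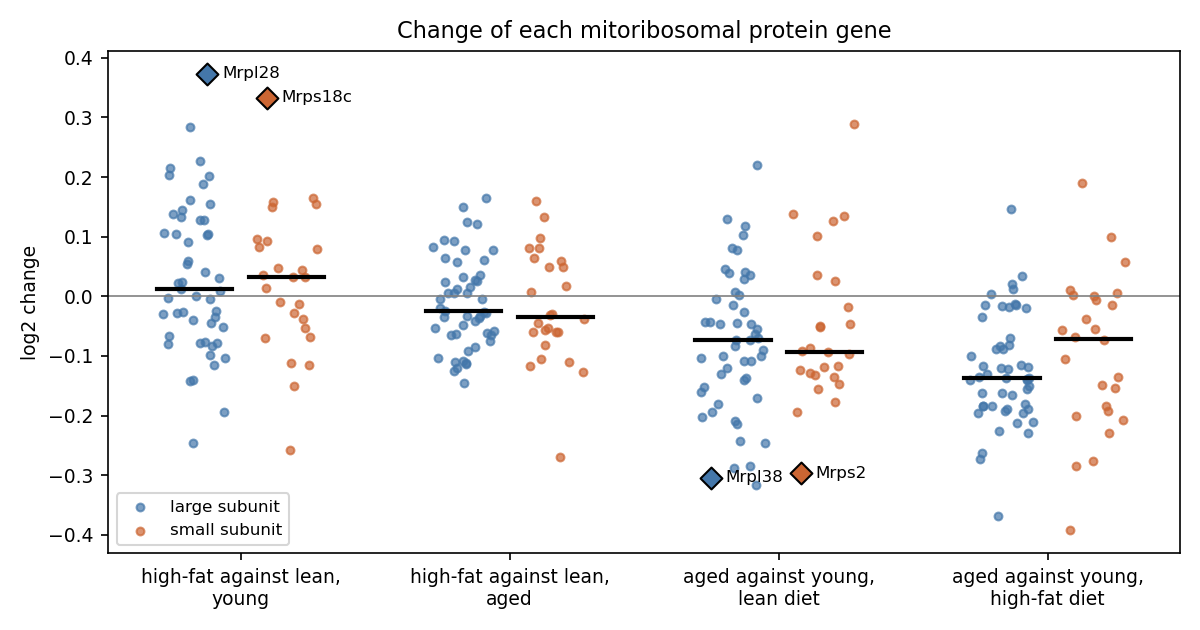
Log2 change of each large-subunit and small-subunit gene in the 4 single-factor comparisons, with Mrps36 not drawn. Each point is a gene, diamonds are genes with an adjusted p under 0.05 and black lines the medians. In aged against young mice on the high-fat diet 46 of 51 large-subunit and 19 of 26 small-subunit genes lie below 0. No gene there passed the test.

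In the same comparison, markers of other cells moved. Of 8 tendon markers, 6 rose (median 1.72), with summed values of 5443 to 9041 in young lean and 12672 to 30569.9 in young obese libraries. Of 10 markers of fibro-adipogenic progenitors, mesenchymal cells of the muscle interstitium, 5 rose, with sums of 27309.8 to 38601 and 33192 to 47301. The 10 markers of muscle fibres, the defining cells of the labelled tissue, summed to between 2.39e+06 and 3.24e+06 in the 19 libraries, and 1 of them rose. Of 10 endothelial markers 2 rose, and of 10 adipocyte markers 1 rose. No marker of these lists was at 0 in every library. With a tendon score as covariate, Mrps18c changed by 0.26 (adjusted p = 0.510) and Mrpl28 by 0.34 (adjusted p = 0.502), and with a clock score by 0.28 (adjusted p = 0.176) and 0.18 (adjusted p = 0.411). With these covariates the calls over all 13367 genes went from 1475 to 0 (tendon) and to 137 (clock, 1.02%). The loss was therefore not limited to the 78 genes. The tendon score was 5.99 to 7.17 in young lean and 7.67 to 9.13 in young obese libraries. These ranges did not overlap, so the fit can hardly tell diet in young mice from the score. Calls lost in it say nothing on a cause. In bulk tissue, fewer cells of a type and less RNA per cell cannot be told apart.

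In aged mice no mitoribosomal protein gene passed the limma test for the high-fat diet, where 0.292% of all tested genes were called (0.135% higher and 0.157% lower). The median was -0.03 (all genes 0.00), 33 genes were above 0 and 45 below, and the smallest adjusted p was 0.401, for Mrpl54 (0.17, SE 0.07). In this comparison 2 genes had an unadjusted p under 0.05 (2.56%, against 11.4% of all genes). For 73 genes the estimate was under 1.1-fold, and for all 78 the 95% interval lay within 1.5-fold, so larger changes are outside these intervals. The most negative was Mrps11 (-0.27, SE 0.13, adjusted p = 0.437), a small-subunit protein with a bacterial counterpart. No member had groups that did not overlap, where 1.86% of all genes did so upward and 1.82% downward. Of 8 slow-fibre markers, 4 rose in this comparison (median 1.38), with sums of 11041 to 24681 in aged lean and 24117 to 68856 in aged obese libraries. The part of that shift in the values of the 78 genes was not tested.

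The diet effect on Mrps18c differed between ages. Its values were 180, 202, 215, 201 and 207 in aged lean and 165, 214, 182, 181 and 192 in aged obese libraries, and these groups overlapped. Its diet effect was -0.11 in aged mice (adjusted p = 0.653) against 0.33 in young mice, a difference of -0.44 (SE 0.12, adjusted p = 0.0468). It was the only 1 of the 78 genes for which this difference passed, where 2.98% of all tested genes were called (1.69% lower and 1.29% higher). The median difference over the 78 genes was -0.04 (all genes 0.00), with 26 above 0 and 52 below, and 4 had an unadjusted p under 0.05 (5.13%, against 22.9% of all genes). Without young lean 1 the difference passed for 4 genes, Mrpl28 (-0.42), Mrpl45 (-0.46), Mrpl48 (-0.41) and Mrps18c (-0.44), where 12.9% of all genes were called. In 13 of the 19 fits that left out 1 library, the difference for Mrps18c did not pass, with adjusted p up to 0.0910. Among the markers, the difference passed downward for 4 of 10 of fibro-adipogenic progenitors, 2 of 8 of tendon and 1 of 10 of macrophages, and upward for 1 of 8 of slow fibres.

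With age on the lean diet, 2 of the 78 genes fell and none rose, where 4.08% of all tested genes were called (1.99% lower and 2.09% higher). These were Mrpl38 and Mrps2. The median was -0.09 (all genes 0.00), 58 genes were below 0 and 20 above, and 11 had an unadjusted p under 0.05, of which 9 were lower with age (14.1% in all, against 21% of all genes). The medians were -0.07 for the 51 large-subunit genes and -0.09 for the 26 small-subunit genes. Without young lean 1 the median over the 78 genes was -0.02.

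Mrpl38 encodes a large-subunit protein specific to mitochondria. Its value was 1179, 1024, 1007 and 1116 in young lean libraries and 780, 930, 914, 934 and 824 in aged lean ones. All 5 aged libraries were below all 4 young ones. The log2 change was -0.30 (SE 0.08, adjusted p = 0.0279), and it was -0.26 (adjusted p = 0.0438) without young lean 1. It did not pass without young lean 4, aged lean 1 or aged lean 5, with adjusted p up to 0.0749.

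Mrps2 encodes a small-subunit protein with a bacterial counterpart. Values were 593, 492, 459 and 446 in young lean and 414, 420, 438, 358 and 386 in aged lean libraries, and the groups did not overlap. The log2 change was -0.30 (SE 0.08, adjusted p = 0.0455), and -0.21 (adjusted p = 0.0791) without young lean 1, so the call rested on that library among others. Of the 19 fits that left out 1 library, 15 lost it. Mrps2 passed with a tendon score (-0.32, adjusted p = 0.0239) and with a clock score (-0.42, adjusted p = 0.0203) as covariate. In the same fits Mrpl38 changed by -0.31 (adjusted p = 0.0344) and -0.39 (adjusted p = 0.0298). Of all tested genes, 3.77% and 1.54% were then called. The part of either score was not tested.

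Mrps30 encodes a large-subunit protein despite its small-subunit name. Its values were 686, 620, 780 and 843 in young lean libraries, 633, 584, 565, 636 and 653 in young obese ones, and 538, 633, 627, 551 and 574 in aged lean ones. Young lean 3 and 4 were the highest of the 19 libraries, and the lowest young lean library lay inside the ranges of the other groups. The changes were -0.32 with age on the lean diet (SE 0.09, adjusted p = 0.0553) and -0.25 with the high-fat diet in young mice (adjusted p = 0.0858), the second of which was -0.27 (adjusted p = 0.0592) without young lean 1. Its exons overlap those of B430218F22Rik on the opposite strand, and whether counting used strand is not given in the sources used here. Without young lean 1, the age change was -0.34 and passed (adjusted p = 0.0357), as did those of Mrpl38 and, upward, Mrpl48 (0.33, adjusted p = 0.0243); 9.51% of all genes were then called.

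Groups did not overlap for 4 genes that were lower with age on the lean diet (Mrpl11, Mrpl37, Mrpl38 and Mrps2), against 3.3% of all genes, and for 1 that was higher (Mrps18c), against 3.16%. The change of Mrps18c was 0.29 with all libraries (adjusted p = 0.0603) and without young lean 1 (adjusted p = 0.0585). Of all cell markers, 1 passed in this comparison, an endothelial marker of 10 that was lower with age, with endothelial sums of 8438 to 11253 in young lean and 7594 to 9719 in aged lean libraries. The 10 macrophage markers did not pass and were all above 0 (median 1.02), with sums of 1988 to 5778 in young lean and 4127 to 16126 in aged lean libraries.

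**Figure D5:**
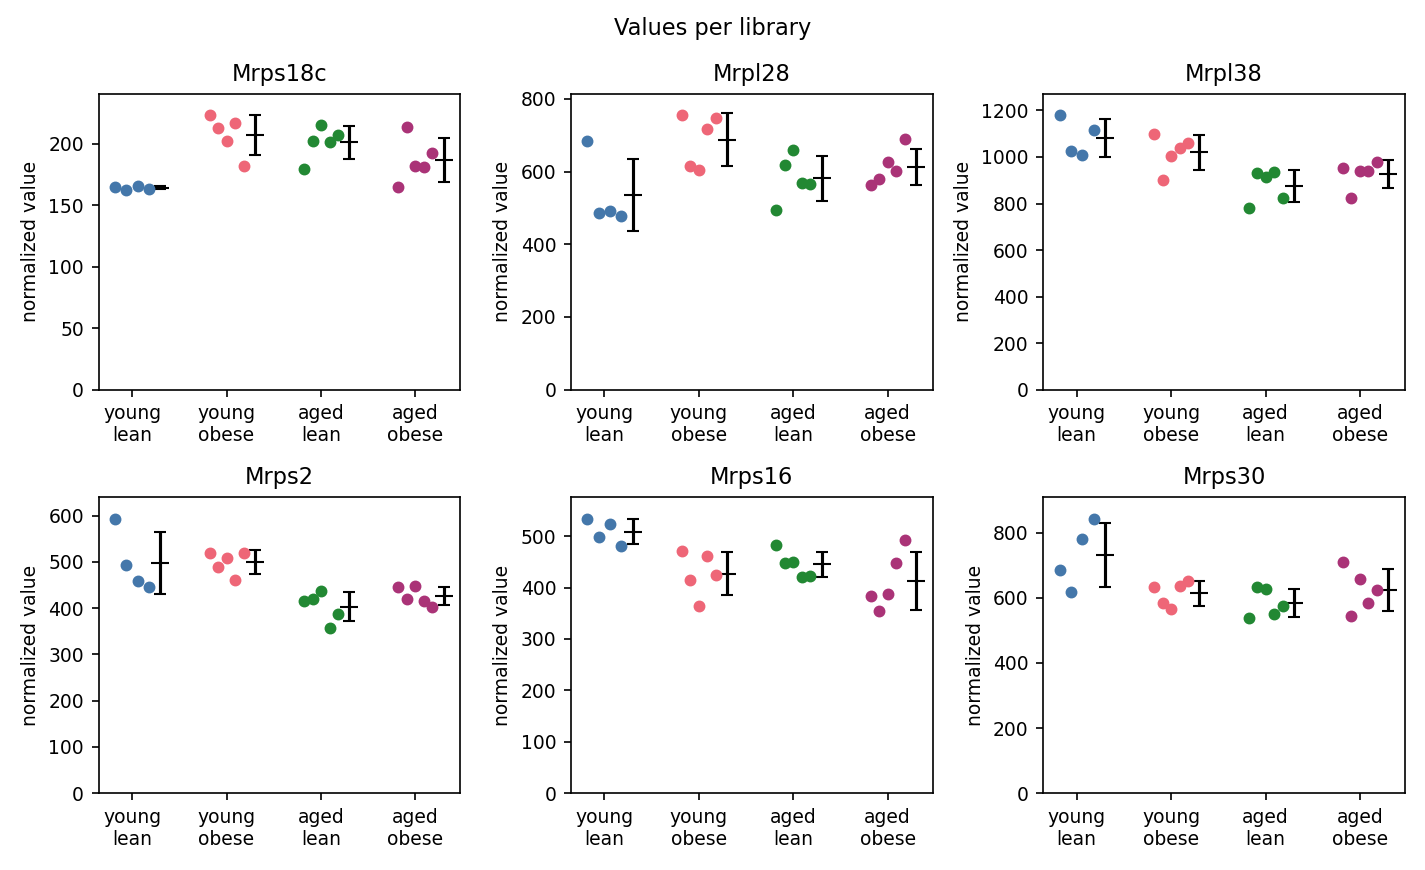
Normalized value per library for Mrps18c, Mrpl28, Mrpl38, Mrps2, Mrps16 and Mrps30; points are libraries, bars the group mean and SD (n = 4 young lean, 5 in each other group), and each axis starts at 0. The 4 young lean libraries of Mrps18c lie between 163 and 166, below all 5 young obese ones.

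With age on the high-fat diet, no mitoribosomal protein gene passed the limma test, where 9.02% of all tested genes were called (4.86% lower and 4.16% higher). The estimates nevertheless lay mostly on 1 side: 66 of the 78 were below 0 and 12 above, with a median of -0.13 (all genes 0.00). By subunit, 46 of 51 large-subunit genes (median -0.14) and 19 of 26 small-subunit genes (median -0.07) were below 0. Small-subunit genes with a bacterial counterpart had 14 of 16 below 0 (median -0.14), and those specific to mitochondria 5 of 10 (median 0.00). The size was small, with 41 genes under 1.1-fold and 71 under 1.2-fold. In 15 genes the unadjusted p was under 0.05, of which 14 were lower with age (19.2% in all, against 26.4% of all genes), and the smallest adjusted p was 0.0535. The members were measured in the same libraries and vary together, so their 78 signs are not independent. With a clock score as covariate the median was -0.03.

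The smallest adjusted p belonged to Mrps24, a small-subunit protein with a bacterial counterpart. Its values were 625, 551, 540, 655 and 687 in young obese and 497, 467, 455, 566 and 537 in aged obese libraries. The 2 lowest young libraries lay inside the aged range, and the change was -0.28 (SE 0.09, adjusted p = 0.0535). Mrps11 had the most negative change. Its values were 253, 211, 197, 228 and 250 in young obese and 141, 201, 169, 164 and 195 in aged obese libraries, and the groups overlapped by 1 library on each side. The change was -0.39 (SE 0.13, adjusted p = 0.0606). Its exons overlap those of Mrpl46 on the opposite strand, and Mrpl46 changed by -0.18 (adjusted p = 0.486). Mrps2 was 520, 490, 509, 460 and 519 in young obese and 446, 419, 448, 415 and 403 in aged obese libraries, with no overlap, and changed by -0.23 (adjusted p = 0.0673). Mrpl22 was the other gene with no overlap, which made 2 lower genes against 4.15% of all genes, and none was higher, against 4.51%.

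Young lean 1 is in neither group of this comparison, but it enters the pooled spread and the adjustment over all genes. Without young lean 1, 6 genes fell with age on the high-fat diet, where 12.5% of all tested genes were called. They were Mrpl34 (-0.37), Mrpl42 (-0.26), Mrps11 (-0.39), Mrps2 (-0.23), Mrps24 (-0.28) and Mrps33 (-0.29). The changes were as before and the SE of each of the 6 was lower. Mrps36, the dehydrogenase subunit with a ribosomal name, changed by -0.30. It did not pass with all libraries (adjusted p = 0.148) or without young lean 1 (adjusted p = 0.0598). In this comparison, fitted with all libraries, 7 of 8 tendon markers fell (median -2.10), with sums of 3717 to 9022 in aged obese libraries. Of 10 fibro-adipogenic progenitor markers 5 fell, with sums of 25084 to 32304. Slow-fibre markers had 2 of 8 that rose (median 0.87), and 1 of 10 endothelial markers fell. The part of these shifts in the mitoribosomal values was not tested. With a tendon score as covariate the median was -0.12. That score was 7.67 to 9.13 in young obese and 5.43 to 7.13 in aged obese libraries, so it can hardly be told from age here.

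Aged obese mice were also set against young lean mice, the comparison in which both factors differ. It shares the young lean libraries with the diet comparison in young mice and the age comparison on the lean diet. No mitoribosomal protein gene passed the limma test, where 5.58% of all tested genes were called (2.33% lower and 3.25% higher). The median was -0.09 (all genes 0.00), 60 genes were below 0 and 18 above, and 18 had an unadjusted p under 0.05, of which 16 were lower (23.1% in all, against 21.3% of all genes). Without young lean 1 the median was -0.02, and 1 gene rose, Mrpl28 (0.33, adjusted p = 0.0406), where 8.06% of all genes were called. The smallest adjusted p with all libraries was 0.0534, for Mrps16 (-0.31, SE 0.09). Its aged obese values were 383, 354, 386, 447 and 493, of which the highest lay inside the young lean range of 481 to 533. Mrps10, a small-subunit protein of bacterial type, was above its young lean level in every aged obese library, at 300, 273, 275, 312 and 301 against 245, 270, 243 and 242. Its change was 0.22 (SE 0.08, adjusted p = 0.108), also 0.22 without young lean 1 (adjusted p = 0.144). It was 1 gene higher with no overlap, against 4.62% of all genes, and 4 were lower (Mrpl11, Mrpl37, Mrpl38 and Mrpl43), against 4.32%. Of the cell markers, 2 of 8 of slow fibres rose (median 1.00, sums of 16560.5 to 30555 in young lean and 24117 to 68856 in aged obese libraries). Of adipocyte markers 2 of 10 rose, with sums of 12788 to 27324 and 15695 to 24771, and 1 of 10 endothelial markers fell, with sums of 8438 to 11253 and 8663 to 9885. The part of these in the values of the 78 genes was not tested.

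The rest of the mitochondrial translation system was described from lists of known members, chosen with earlier results of these data known. The 5 mitoribosomal proteins that carry other symbols (Dap3, Chchd1, Ptcd3, Aurkaip1 and Gadd45gip1) had no change that passed in any of the 6 comparisons. Their medians lay between -0.09 and 0.02. Of 16 translation factors, Gfm2, a factor that recycles ribosomes, fell with age on the lean diet (-0.28, adjusted p = 0.0191). On the high-fat diet all 16 were below 0 with age (median -0.14) and 2 fell, where 4.86% of all tested genes did. The 2 were the elongation factor Tufm (-0.33, SE 0.08, adjusted p = 0.0207) and Taco1 (-0.41, SE 0.11, adjusted p = 0.0249). Taco1 promotes translation of a cytochrome oxidase message.

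Of 28 genes for assembly of the ribosome and modification of its RNA, 3 fell with age on the lean diet, where 1.99% of all tested genes did. Among the 3 were the GTPase Mtg2 (-0.43, adjusted p = 0.0138) and C1qbp (-0.41, adjusted p = 0.00858). The third (-0.36, adjusted p = 0.04999) did not pass without young lean 1 (-0.30, adjusted p = 0.0830). The methyltransferase Mrm1, which modifies the large ribosomal RNA, rose with the high-fat diet in young mice (0.45, adjusted p = 0.0432), while the GTPase Gtpbp10 fell (-0.34, adjusted p = 0.0405, and -0.30, adjusted p = 0.0652, without young lean 1). Mrm1 fell with age on the high-fat diet (-0.43, adjusted p = 0.0461); the young obese libraries are shared by both comparisons. Of 22 genes for tRNA charging, Vars2, the mitochondrial valyl-tRNA synthetase, fell with age on the lean diet (-0.40, adjusted p = 0.0187). Kars, which charges lysine tRNA in both compartments, fell with the high-fat diet in young mice (-0.29, adjusted p = 0.00533) and rose with age on the high-fat diet (0.22, adjusted p = 0.0145). Gatb, a subunit of the enzyme that forms glutaminyl-tRNA in mitochondria, fell with age on the high-fat diet (-0.30, adjusted p = 0.0231). Of 21 genes for mitochondrial transcription and RNA processing, Prorp, the nuclease of mitochondrial RNase P, fell with the high-fat diet in young mice (-0.32, adjusted p = 0.00948) and with age on the lean diet (-0.35, adjusted p = 0.00859), comparisons that share the young lean libraries. Angel2 also fell in the first of these (-0.23, adjusted p = 0.0350).

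Of 13 nuclear regulators of mitochondrial biogenesis, 1 passed in any comparison. Esrra, the estrogen-related receptor that drives oxidative genes, rose with the high-fat diet in young mice (0.52, SE 0.12, adjusted p = 0.0127). Without young lean 1 its change was 0.67, and it then also passed for age on the lean diet (0.44, adjusted p = 0.0122), for aged obese against young lean (0.44, adjusted p = 0.0130) and for the difference of diet effects (-0.67, adjusted p = 0.00559). With the high-fat diet in young mice and all libraries, the coactivator Ppargc1a changed by 0.10 (adjusted p = 0.501) and Nrf1 by -0.22 (adjusted p = 0.125). Gabpa changed by -0.09 (adjusted p = 0.363) and Tfam by 0.06 (adjusted p = 0.618). None of these 4 passed in any of the 6 comparisons. Of 14 genes of the mitochondrial stress response, Atf4, a transcription factor that such stress induces, was lower in 3 comparisons that share the young lean libraries (-0.26, adjusted p = 0.0412, for diet in young mice, -0.39, adjusted p = 0.00911, for age on the lean diet, and -0.39, adjusted p = 0.00667, for aged obese against young lean). Hspe1, the mitochondrial co-chaperonin, was lower in the first and the last of these (-0.54 and -0.62), but did not pass without young lean 1 (-0.29, adjusted p = 0.0861, and -0.37, adjusted p = 0.0616). Phgdh, of serine synthesis, rose in the first (1.21).

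Respiratory complex I joins subunits made by the mitochondrial ribosome to nuclear-encoded ones, and 37 genes of the second kind were described. With the high-fat diet in young mice 1 of them rose (Ndufv3, 0.32, adjusted p = 0.0388), where 5.7% of all tested genes did. Of the 37, 33 were above 0 and the median was 0.15. With age on the high-fat diet 5 of 37 fell, where 4.86% of all tested genes did, all 37 were below 0 and the median was -0.20. Ndufc1 (-0.42, adjusted p = 0.00379) and Ndufs4 (-0.38, adjusted p = 0.0131) were among the 5 that fell. The 75 cytosolic ribosomal protein genes had medians of -0.08 and 0.05 in the same comparisons. In the first, 1 rose and 5 fell, where 5.7% and 5.33% of all tested genes did. In the second 3 rose, where 4.16% did. Whether the mitoribosomal genes differ from either list was not tested. Of the calls printed for genes outside the 78, those of Gtpbp10, Hspe1 and the third assembly gene were lost without young lean 1. The rest passed in that fit too.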

How the data were processed

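RNA-seq of 19 muscle libraries in 4 groups was analysed from 1 deposited table. Its values are a normalized signal per gene and library, made by the authors per the labels. The submitters' processing notes list STAR 2.78a, DESeq2, Partek and mm39 without saying what each did. The counting program, annotation and use of strand are not stated there. Totals of the normalized values were 15.4 to 17.7 M per library. Per the labels' protocols, only RNA with an integrity number of at least 7 was used. Low values were not whole multiples of 1 read, so no count test was run. The totals are sums after normalization, so the sequencing depth of a library is not known from them.

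Values were taken as log2(value + 1) for the 13367 of 14707 genes whose mean reached 10; the other 1340 were not tested. On this scale the fold changes of low genes are understated. limma 3.58.1 (limma-trend, R 4.3.3) was fitted with 4 group means and no covariate (15 residual degrees of freedom, 4.37 added by the prior). From it came 5 contrasts of groups and the difference between the diet effects in aged and young mice. A gene is called at a Benjamini-Hochberg adjusted p under 0.05 over all tested genes of a comparison, and every p printed comes from this fit or an alternative of it. Intervals are at 95%. The code was tested on simulated data.

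The members and lists were chosen with earlier results of these data known, and lists are described by counts and medians without a test. Subunits were assigned from textbook knowledge. Cytosolic ribosomal proteins are the Rpl and Rps symbols with a number, without kinases, binding proteins and symbols ending in -like. Named genes were the members called in a comparison, those with the largest change each way and the highest and lowest per kb, with Mrpl12, Mrps18a, Mrps18b, Mrps18c, Mrps30 and Mrps36, and up to 4 called genes of each other list, of which 1 is not reported here. Mrps24, Mrps16 in the age comparisons and the genes with groups that do not overlap were named after their values were seen. The tendon score averages log2 values of Kera, Chad, Cilp2, Mkx, Scx and Tnmd. The clock score averages those of Clock, Arntl and Npas2 and subtracts the average over Ciart, Nr1d2, Hlf, Tef, Per3 and Dbp. Alternatives covered the pseudocount, the filter, quantile normalization, library weights, both scores as covariates, the groups of a comparison alone, 2 pairs of libraries left out and each library left out. Exon lengths and promoters came from GENCODE M21 and RefSeq (GRCm38), another build than mm39. Reads of the pseudogenes Mrpl23-ps1, Mrpl48-ps and 3 of Mrps36 may be split with their parents. Tables and figures used Python 3.11.15, pandas 2.3.3 and matplotlib 3.10.9.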

Additional observations from a re-analysis of the deposited data

Results flagged for a closer look

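In all, 64 groups of libraries were examined for 16 quantities, which were named members and the mean log2 value over the 78 genes. Of these groups, 5 held a library far from the others by Dixon's criterion at 95%, which flags about 1 in 20 groups by chance. Young lean 1 was the library in 3 of them. Its value of Mrpl28 was 683, against 476 to 492 in the other 3 young lean libraries. Its value of Mrps35 was 261, against 185 to 192, and its value of Mrps36 was 568, against 355 to 367. Young lean 2 had 270.2 for Mrps10, against 242 to 245. Aged obese 2 had 824 for Mrpl38, against 938 to 979 in the other 4 aged obese libraries.

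The diet effect on Mrps18c differed between ages by -0.44 on the log2 scale (aged minus young, SE 0.12, adjusted p = 0.0468, limma). All 5 young obese libraries were above all 4 young lean ones, and the aged groups overlapped.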

How the results depend on the processing

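No paired analysis was possible because the library numbers follow accession order and pair no libraries across groups. In the order diet in young, diet in aged, age on the lean diet, age on the high-fat diet, aged obese against young lean and the difference of diet effects, 2, 0, 2, 0, 0 and 1 members were called. Leaving out 1 library gave 1 to 7, 0 to 0, 0 to 4, 0 to 6, 0 to 2 and 0 to 4. The medians then ran from -0.01 to 0.09, -0.07 to 0.01, -0.13 to -0.02, -0.16 to -0.10, -0.12 to -0.02 and -0.10 to -0.00. The share of all tested genes called in the same setting stands in brackets. For diet in young mice, library weights gave 12 (25.6%), leaving out young lean 1 and young obese 2 gave 7 (25.4%) and quantile normalization gave 1 (11.5%). Leaving out young lean 3 and young obese 3 (3.9%), the tendon score (0%), the clock score (1.02%) or the 2 groups alone (1.36%) gave 0. For age on the lean diet, library weights gave 5 (11.7%), a mean of at least 50 gave 4 (5.12%), quantile normalization (3.93%) and leaving out young lean 3 and young obese 3 (2.66%) gave 1 each, and the 2 groups alone gave 0 (0.973%). For age on the high-fat diet, library weights gave 17 (21.2%), leaving out young lean 1 and young obese 2 gave 8 (18.9%), the 2 groups alone gave 4 (9.91%), leaving out young lean 3 and young obese 3 gave 2 (5.88%) and a mean of at least 50 gave 1 (10.3%). For aged obese against young lean, library weights gave 5 (12.8%), the clock score 2 (6.39%), and a mean of at least 50 (6.29%) and leaving out young lean 1 and young obese 2 (9.12%) gave 1 each. For the difference of diet effects, library weights gave 6 (18.7%) and leaving out young lean 1 and young obese 2 gave 5 (20.2%). No filter (2.36%), quantile normalization (2.81%), leaving out young lean 3 and young obese 3 (1%), the tendon score (0%) and the clock score (0.0374%) gave 0. With the clock score its median was 0.16, against -0.04. The cause of these moves was not tested. By design, a fit on fewer libraries has fewer degrees of freedom, and the part of this was not tested either. Every young obese library also had a higher tendon score than every library of the other groups. Every one of the 5 calls among members was lost in at least 1 fit that left out a library. Of 68 results on named members that were not called, 14 passed in at least 1 alternative. Of 41 calls on named genes of other lists, 26 were lost in at least 1 fit without a library and 39 in at least 1 alternative of any kind. With 4 or 5 libraries a group and a median SE of 0.09 in each of the 5 contrasts of groups and 0.13 for the difference of diet effects, changes of the size seen in most members could not be told from 0.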
